A study of Mus musculus with 6 samples.

Results

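Expression of 10 genes of insulin, insulin-like growth factor (IGF) and FOXO signalling was examined in cultured mouse neural stem cells: the IGF binding protein genes Igfbp2, Igfbp3 and Igfbp5, the receptor genes Igf1r and Insr, the adaptor genes Irs1 and Irs2, and the transcription factor genes Foxo1, Foxo3 and Foxo4. They were chosen by name for their place in the pathway, but with earlier results of these data known. They were 10 of the 27694 genes with a value in the deposited table. Neural stem cells divide and can form neurons and glia, and these had a C57/Bl6 background and grew without serum in DMEM/F12 with B27 supplement, FGF-2 and EGF. All cultures were untreated; 3 carried the label vimentin knockout (KO) and 3 the label wild type (WT), and the labels give neither the allele nor the age of the animals. RNA depleted of ribosomal RNA was sequenced in strand-specific paired-end libraries.

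Insulin and the IGFs bind receptor tyrosine kinases that phosphorylate the insulin receptor substrates, which recruit PI3 kinase and so activate the kinase AKT. AKT phosphorylates FOXO transcription factors and keeps them out of the nucleus; when the signal is low, FOXO factors enter the nucleus and act on genes of cell cycle arrest, stress resistance, protein breakdown and autophagy. IGF binding proteins are secreted and hold IGFs outside the cell, which can block or prolong their action. FOXO factors are known to maintain the pool of adult mouse neural stem cells, and IGF receptors are known to promote growth of neural progenitors. The standard B27 supplement of such media contains insulin.

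The libraries labelled KO went against that label at the targeted gene. Vim, which encodes the intermediate filament protein vimentin, had 649.8, 732 and 624 FPKM in the libraries labelled KO, against 191, 179 and 186 FPKM in those labelled WT (log2 fold change 1.84, SE 0.10, adjusted p = 0.0013, limma). FPKM counts fragments per kilobase of an isoform in proportion to all fragments of its library, so levels of different genes can be set side by side per length. The groups are therefore called the libraries labelled KO and those labelled WT, and every direction given is that of the labels, not of a measured loss of vimentin. Depth was 28.4 to 32.5 M reads of 150 bases in the libraries labelled KO and 28.9 to 36.2 M in those labelled WT. For an RNA of 2000 bases, 3 reads are worth 0.0414 to 0.0529 FPKM, a floor that covers counting error only. WT 2 stood apart: 16.4% of its FPKM lay in fragments outside the summed isoforms, against 3.995% to 5.49% in the other 5 libraries. Of 6 markers of neural stem and progenitor cells, Nes, Pax6, Msi1 and Fabp7 were detected in every library. Sox2, a defining marker, was listed at 0 in the 3 libraries labelled KO, and at 53.3, 0 and 28.4 FPKM in those labelled WT. Sox1 stood at 0.215, 0 and 0 FPKM in KO 1 to KO 3, and at 0, 21.0 and 18.3 FPKM in WT 1 to WT 3. The 6 summed to 713 to 757 FPKM in the libraries labelled KO and 469 to 656 FPKM in those labelled WT, a sum carried by Fabp7. Without Fabp7 the sum was 53.0 to 67.6 FPKM in the libraries labelled KO and 108.5 to 110.6 FPKM in those labelled WT. That separation came from Sox2 and Sox1, each listed at 0 in libraries of both groups. Nes, Pax6 and Msi1 each overlapped between the groups, with means of 26.5, 11.5 and 21.0 FPKM in the libraries labelled KO. Their means in those labelled WT were 33.2, 11.7 and 24.1 FPKM. In limma, 0 of the 6 passed the test. Whether each culture was from its own animal is not in the labels, and p-values then measure only the spread of these samples, some of which may be technical.

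All 10 genes passed the filter of a mean of at least 1 FPKM, and changes were tested with limma on log2(FPKM + 1) with Benjamini-Hochberg adjustment over all 12080 genes that passed it. Of the 10, 2 were called higher in the libraries labelled KO at an adjusted p under 0.05 (Igfbp2 and Igfbp3), 0 were called lower and 8 did not pass. Over all genes tested, 6.9% were called, 3.65% higher and 3.25% lower. In 2 of the 10 every KO value lay above every WT value, in 1 (Foxo4) every KO value lay below, and in 7 the groups overlapped. Such separation was seen in 33.3% of all genes tested, 16.9% with KO above and 16.4% with KO below. The median log2 fold change of the 10 was 0.01, against -0.02 over all genes. In bulk RNA, fewer cells of a type and less RNA per cell cannot be told apart.

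**Figure D1:**
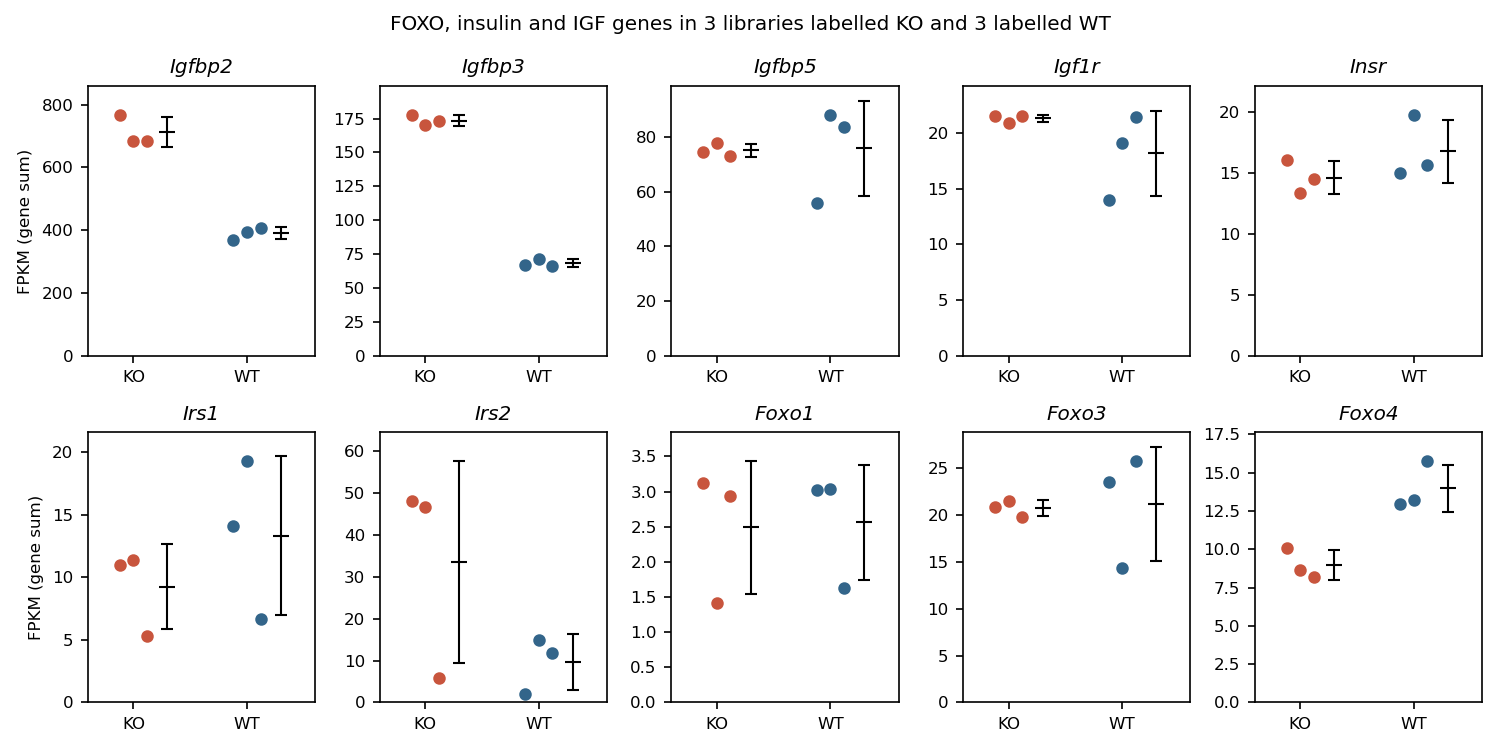
FPKM of the 10 genes, each in a panel with its own linear axis from 0, with a point for each of the 6 libraries, those labelled KO left of those labelled WT, and the group mean with its SD beside the points. Igfbp2 and Igfbp3 show KO points above all WT points, Foxo4 shows them below, and the 3 KO points of Irs2 run between 5.82 and 48.0 FPKM.

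The IGF binding protein genes were the most abundant of the 10. Averaged over the 6 libraries, Igfbp2 had 551 FPKM and ranked 20 of the 12080 genes tested, Igfbp3 had 121 FPKM and Igfbp5 75.5 FPKM. In the libraries labelled KO, Igfbp3 lay above Igfbp5 in each library, whereas in those labelled WT they did not differ beyond their spread (68.4 ± 2.74 FPKM for Igfbp3 and 75.9 ± 17.4 FPKM for Igfbp5). Next came Irs2, Foxo3, Igf1r and Insr, with means over 6 libraries of 21.6, 21.0, 19.7 and 15.7 FPKM. The ranges of these 4 overlapped between neighbours in that order. Foxo4 and Irs1 followed at 11.5 and 11.3 FPKM, again with overlapping ranges, and Foxo1 was lowest at 2.52 FPKM, above only 15.6% of the genes tested.

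Promoters, the stretches of DNA just before the start of transcription, are shown for the 3 binding protein genes, of which 2 were called and 1 was not, and for the 2 substrate genes, which both hold an insulin response core. Promoters were available for 8 of the 10 genes from RefSeq (GRCm38.p6), and the 250 bases before each start site were searched. They are written on the gene's own strand, 5′ to 3′, with matches in capitals: GC boxes (GGGCGG) in Igfbp2, GC boxes and insulin response cores (CAAAACA, here on the reverse strand as TGTTTTG) in Irs1 and Irs2. Igfbp2 is at chr1:72824230-72824479 on the plus strand, and the other 4 lie on the minus strand: Igfbp3 at chr11:7213924-7214173, Igfbp5 at chr1:72874866-72875115, Irs1 at chr1:82291440-82291689 and Irs2 at chr8:11008930-11009179. The Igfbp2 window is the one before its leading isoform, and the RefSeq start of Irs2 lies upstream of the isoform in the deposited table.
Igfbp2: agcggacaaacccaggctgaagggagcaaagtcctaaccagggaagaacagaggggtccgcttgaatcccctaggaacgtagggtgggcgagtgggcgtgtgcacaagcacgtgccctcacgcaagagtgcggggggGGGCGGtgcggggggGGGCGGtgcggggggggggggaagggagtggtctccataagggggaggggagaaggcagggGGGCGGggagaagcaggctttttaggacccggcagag
Igfbp3: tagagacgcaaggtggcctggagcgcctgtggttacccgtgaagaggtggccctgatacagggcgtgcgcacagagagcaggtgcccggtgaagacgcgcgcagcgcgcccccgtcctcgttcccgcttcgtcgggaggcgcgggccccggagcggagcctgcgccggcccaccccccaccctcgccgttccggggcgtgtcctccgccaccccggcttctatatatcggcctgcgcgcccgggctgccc
Igfbp5: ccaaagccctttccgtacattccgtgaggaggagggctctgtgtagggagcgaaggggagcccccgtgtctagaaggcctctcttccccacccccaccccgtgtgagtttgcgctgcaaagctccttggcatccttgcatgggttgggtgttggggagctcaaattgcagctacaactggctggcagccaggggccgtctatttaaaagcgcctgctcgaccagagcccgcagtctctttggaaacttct
Irs1: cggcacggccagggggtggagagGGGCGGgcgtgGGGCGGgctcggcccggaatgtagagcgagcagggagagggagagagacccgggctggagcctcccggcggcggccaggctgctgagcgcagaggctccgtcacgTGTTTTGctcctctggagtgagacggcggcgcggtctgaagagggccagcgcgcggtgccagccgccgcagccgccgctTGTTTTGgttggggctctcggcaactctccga
Irs2: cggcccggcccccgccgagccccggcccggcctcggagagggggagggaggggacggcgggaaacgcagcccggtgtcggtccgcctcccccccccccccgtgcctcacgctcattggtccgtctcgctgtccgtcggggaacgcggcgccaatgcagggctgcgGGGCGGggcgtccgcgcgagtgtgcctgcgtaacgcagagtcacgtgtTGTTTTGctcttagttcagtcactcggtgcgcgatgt

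Each window was searched on both strands for 5 motifs. The FOXO element was spelled GTAAACA. A looser FOXO element was spelled TGTTTNC, which also covers the reverse complement of the first. Besides the insulin response core and the GC box spelled above, the TATA box was spelled TATAAA. The Igfbp2 window held 3 GC boxes, whose first bases lie at -113, -98 and -37, counted back from -1 as the last base before the start site. The windows of Igfbp3 and Igfbp5 held none of the motifs searched. The Igfbp3 window was rich in CpG, with 32 CpG and 73.2% GC, against 14 CpG and 67.2% GC in Igfbp2 and 10 CpG and 58.8% GC in Igfbp5; the medians over all 32851 promoters were 6 CpG and 52.4% GC. Foxo1, Foxo3 and Igf1r held 2, 5 and 2 GC boxes and no other motif. Irs1 held 2 CAAAACA matches, at -111 and -32, and Irs2 1, at -37, beside GC boxes at -227 and -216 in Irs1 and at -85 in Irs2. CAAAACA was found in 5.56% of all promoters of this length and GGGCGG in 32.7%. Neither FOXO element was found in the windows of the 8 genes, against 3.17% (GTAAACA) and 17.8% (TGTTTNC) of all promoters. TATAAA, found in 12.4% of all promoters, was in none of them either. A match is only a run of letters, and its absence concerns only these windows.

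Igfbp3 encodes the main carrier of IGFs in blood serum, and its RNA was higher in every library labelled KO. It had 178, 170.0 and 173 FPKM in the libraries labelled KO, against 67.0, 71.5 and 66.6 FPKM in those labelled WT. The KO values lay within 1.05-fold of each other and the WT values within 1.07-fold. The means were 174 ± 3.89 and 68.4 ± 2.74 FPKM (SD, n = 3 each), a 2.54-fold difference (log2 fold change 1.33, SE 0.07, 95% interval 1.15 to 1.51, adjusted p = 0.00143, limma). Its p ranked 17 of the 12080 genes. Igfbp3 lies on chromosome 11, minus strand, at 7206086 to 7213923.

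Igfbp2, which encodes a binding protein made by neural progenitors and glia, was also higher in every library labelled KO. It had 767, 685 and 684 FPKM in the libraries labelled KO, against 369.9, 394 and 408 FPKM in those labelled WT, with no overlap. The means were 712 ± 47.5 and 390.5 ± 19.1 FPKM (SD, n = 3 each), a 1.82-fold difference (log2 fold change 0.86, SE 0.10, 95% interval 0.63 to 1.10, adjusted p = 0.00844, limma). Both calls held whichever library was left out, with adjusted p up to 0.0139 for Igfbp3 and 0.044 for Igfbp2. Without a filter on low values, the adjusted p of Igfbp2 was 0.0633.

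Igfbp5 is the neighbour of Igfbp2 on chromosome 1 and encodes a binding protein that also attaches to extracellular matrix; it did not pass the test. Igfbp2 runs on the plus strand from 72824503 to 72852474 and Igfbp5 on the minus strand from 72857932 to 72874884, so the genes point toward each other across 5457 bases. Igfbp5 had 74.6, 77.7 and 73.1 FPKM in the libraries labelled KO, against 56.0, 88.1 and 83.6 FPKM in those labelled WT. The KO values lay inside the range of the WT values, where WT 1 was the low one. Its log2 fold change was 0.01 (SE 0.18, 95% interval -0.43 to 0.46, adjusted p = 0.978, limma). Within libraries, Igfbp2 was 10.3, 8.82 and 9.35 times the level of Igfbp5 in those labelled KO, against 6.60, 4.47 and 4.88 times in those labelled WT. The ratio of Igfbp3 to Igfbp5 was 2.38, 2.19 and 2.36 in the libraries labelled KO, against 1.20, 0.812 and 0.796 in those labelled WT. Both ratios separated the groups, and so did that of Igfbp2 to Igfbp3, which was 4.32, 4.03 and 3.96 in the libraries labelled KO, against 5.52, 5.50 and 6.12 in those labelled WT. These ratios are made from the gene values already given, so they describe the same differences and are not separate evidence.

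Summed over the 7 genes Igfbp1 to Igfbp7, the IGF binding protein RNA was 1207, 1097 and 1099 FPKM in the libraries labelled KO, against 625, 688 and 583 FPKM in those labelled WT. Igfbp2 made up 62.2% to 63.6% of this sum in the libraries labelled KO and 57.2% to 69.9% in those labelled WT, an overlap that rests on WT 3. In WT 1 and WT 2 the share was 59.2% and 57.2%, below every KO value, and in WT 3, where Igfbp4 had 4.26% of the sum, it was 69.9%. Igfbp3 made up 14.7% to 15.7% in the libraries labelled KO, above its 10.4% to 11.4% in those labelled WT. Igfbp5 made up 6.18% to 7.08% in the libraries labelled KO, below its 8.96% to 14.3% in those labelled WT. Markers of fibroblasts and mural cells, which elsewhere express IGF binding proteins strongly, were near 0: all 7 stayed under 1 FPKM in every library, their sum was 0.537 to 0.683 FPKM in the libraries labelled KO and 0.416 to 0.492 FPKM in those labelled WT, and Lum was listed at 0 throughout.

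The genes whose levels followed Igfbp3 most closely over the 6 libraries were Eprs, Camk2b and Iars, each with a Pearson r of 0.999 on the log2 scale. Eprs had 119.6, 120.3 and 119.8 FPKM in the libraries labelled KO, against 52.5, 54.3 and 53.1 FPKM in those labelled WT. The 6 points fall into the 2 groups, and 418 tested genes had an r above 0.95 with Igfbp3, so this likeness is a description only.

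The receptor genes did not pass the test in either direction. Igf1r, which encodes the receptor that binds IGF-1 and IGF-2, had 21.5, 20.9 and 21.5 FPKM in the libraries labelled KO, against 13.96, 19.1 and 21.4 FPKM in those labelled WT. The lowest value was that of WT 1, and WT 3 lay within the KO range (log2 fold change 0.24, 95% interval -0.16 to 0.64, adjusted p = 0.422, limma). Insr, which encodes the insulin receptor, had 16.1, 13.4 and 14.5 FPKM in the libraries labelled KO, against 15.0, 19.8 and 15.7 FPKM in those labelled WT. WT 2 was the highest and the groups overlapped (log2 fold change -0.18, 95% interval -0.52 to 0.16, adjusted p = 0.477, limma). Igf1r lies on chromosome 7 at 67951836 to 68233668 (plus strand) and Insr on chromosome 8 at 3122061 to 3280387 (minus strand). Summed, the 2 receptors had 34.3 to 37.6 FPKM in the libraries labelled KO and 28.9 to 38.9 FPKM in those labelled WT.

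The insulin receptor substrate genes had the widest spread of the 10, and neither passed the test. Irs2 (chromosome 8, 10984681 to 11008458, minus strand) had 48.0, 46.7 and 5.82 FPKM in the libraries labelled KO, against 2.09, 14.9 and 11.8 FPKM in those labelled WT. KO 1 and KO 2 were the highest, KO 3 lay among the libraries labelled WT, and WT 1 was the lowest. The highest KO value was 8.25 times the lowest, and the highest WT value 7.16 times the lowest. The means were 33.5 ± 24.0 and 9.60 ± 6.70 FPKM (SD, n = 3 each; log2 fold change 1.56, SE 0.99, 95% interval -0.89 to 3.995, adjusted p = 0.395, limma). A 2-sided exact permutation test on the 6 values gave p = 0.3, where 3 against 3 cannot go below 0.1. Leaving out single libraries moved the log2 fold change between 0.82 and 2.50. Between 382 and 9058 reads lay behind each value.

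Irs2 has 1 annotated isoform with 2 exons. The table also lists 2 single-exon fragments inside its intron, with no strand, that were not part of the gene value. Summed, they had 8.17, 9.42 and 11.1 FPKM in the libraries labelled KO, against 5.64, 3.998 and 5.08 FPKM in those labelled WT. Here all KO values lay above all WT values and KO 3 was the highest, unlike in the spliced isoform, where KO 3 was the lowest of the KO values. Neither fragment passed the test across all isoforms (log2 fold change 0.87, adjusted p = 0.426, and 0.59, adjusted p = 0.457, limma), and such separation with KO above was seen in 10.1% of the 30650 isoforms tested.

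**Figure D2:**
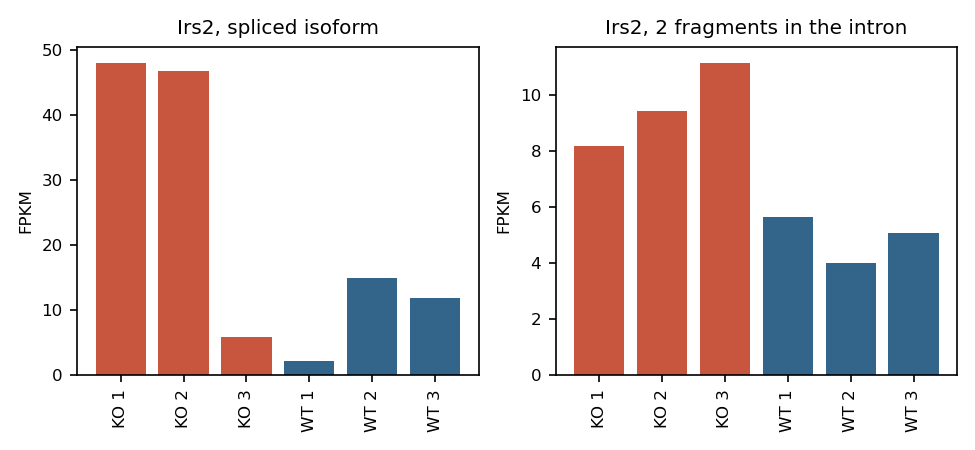
FPKM of Irs2 by library, with the spliced isoform in the left panel and the sum of 2 fragments in its intron in the right panel, each with its own linear axis from 0. In the left panel KO 3 falls among the WT bars at 5.82 FPKM, and in the right panel it is the highest at 11.1 FPKM.

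Irs1, which encodes the substrate that passes IGF signals to growth, had 11.02, 11.4 and 5.32 FPKM in the libraries labelled KO, against 14.1, 19.3 and 6.66 FPKM in those labelled WT. In each group 1 library was low, KO 3 and WT 3, and the groups overlapped (log2 fold change -0.44, SE 0.44, 95% interval -1.52 to 0.64, adjusted p = 0.588, limma). It lies on chromosome 1 at 82233100 to 82291677, minus strand. The within-group SD of log2(FPKM + 1) was 1.47 for Irs2, larger than for 97.6% of genes tested, and 0.64 for Irs1, larger than for 88.1%. The median of this SD was 0.851 over 671 genes with 1 exon, 0.465 over 537 genes with 2 exons and 0.215 over 10872 genes with 3 or more. Genes were classed by the most exons of any summed isoform, so Irs2 belonged to the class of 2 exons. Irs1, with 4 exons in its assembled isoform, belonged to that of 3 or more. By contrast it was 0.0836 for Igfbp2 and 0.0458 for Igfbp3.

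**Figure D3:**
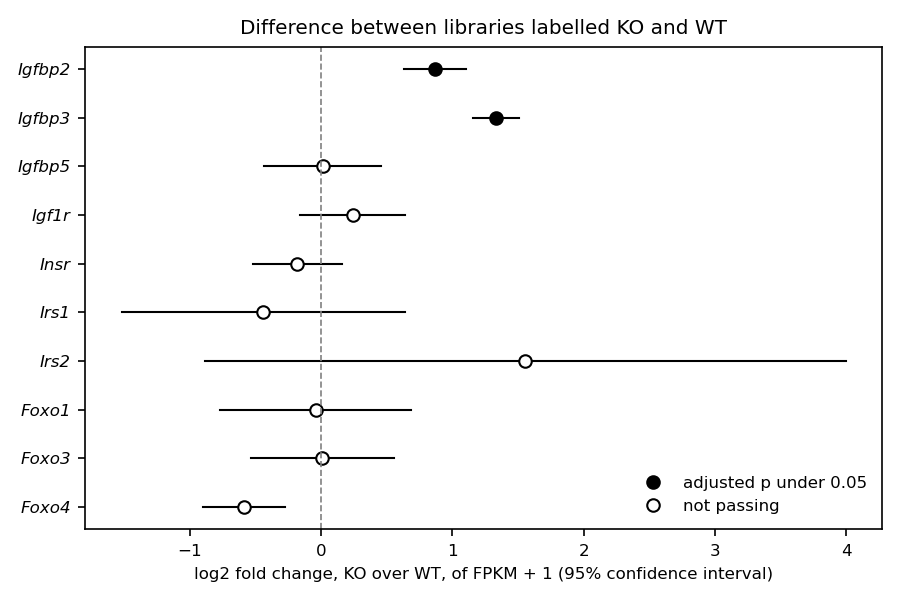
Log2 fold change of the 10 genes, libraries labelled KO over those labelled WT, of FPKM + 1, with bars for the 95% interval of the limma fit. The intervals of Igfbp3 (1.15 to 1.51) and Igfbp2 (0.63 to 1.10) lie above 0, that of Foxo4 (-0.90 to -0.27) lies below 0 although its adjusted p was 0.0526, and that of Irs2 (-0.89 to 3.995) is the widest.

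None of the FOXO genes passed the test. Foxo3 (chromosome 10, 42181841 to 42276755, minus strand), the family member needed to keep adult mouse neural stem cells in reserve, had 20.9, 21.5 and 19.8 FPKM in the libraries labelled KO, against 23.5, 14.3 and 25.7 FPKM in those labelled WT. The 3 KO values lay close together and inside the WT range, where WT 2 was low (log2 fold change 0.01, 95% interval -0.53 to 0.55, adjusted p = 0.985, limma). Foxo1 (chromosome 3, 52268336 to 52353221, plus strand), which controls glucose production in the liver, had 3.12, 1.41 and 2.93 FPKM in the libraries labelled KO, against 3.02, 3.04 and 1.62 FPKM in those labelled WT. KO 2 and WT 3 were the low libraries, and 374 reads lay behind the lowest value (log2 fold change -0.04, 95% interval -0.77 to 0.68, adjusted p = 0.953, limma).

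Foxo4, the X-linked member of the family (101254528 to 101260873, plus strand), had 10.1, 8.63 and 8.21 FPKM in the libraries labelled KO, against 13.0, 13.2 and 15.7 FPKM in those labelled WT. All KO values lay below all WT values, and the means were 8.97 ± 0.981 and 13.98 ± 1.53 FPKM (SD, n = 3 each), a ratio of 0.642. The log2 fold change was -0.59 (SE 0.13, 95% interval -0.90 to -0.27), and the adjusted p of 0.0526 (limma) did not pass. With a filter of 5 FPKM, which leaves fewer genes to adjust over, the adjusted p was 0.0416 (limma). That was the only 1 of 20 other settings in which Foxo4 passed. Its adjusted p reached 0.197 with the highest isoform only, and up to 0.16 with 1 library left out (limma). Within libraries, Foxo4 was 0.482, 0.401 and 0.415 times the level of Foxo3 in those labelled KO, against 0.552, 0.923 and 0.612 times in those labelled WT. Summed, the 3 FOXO genes had 34.1, 31.6 and 30.9 FPKM in the libraries labelled KO, against 39.5, 30.6 and 43.1 FPKM in those labelled WT, which overlap at WT 2.

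The 10 genes took 45 isoforms or fragments in the table, of which 35 were summed to the gene values, 28 annotated and 7 assembled from the reads. Among the 30650 isoforms tested, 0.124% were called, and 2 isoforms of these genes were among them. ENSMUST00000020702 made up 96.9% to 99.8% of Igfbp3 in every library (log2 fold change 1.33, adjusted p = 0.0272, limma), and ENSMUST00000047328 made up 99.1% to 99.7% of Igfbp2 (log2 fold change 0.86, adjusted p = 0.0337, limma). Both isoform calls were lost whichever library was left out, with adjusted p of 0.0588 or more for Igfbp3 and 0.12 or more for Igfbp2. Igfbp5 (ENSMUST00000027377), Foxo4 (ENSMUST00000062000), Foxo1 (ENSMUST00000053764) and Irs2 (ENSMUST00000040514) were also carried mainly by 1 isoform each, at 93.2% or more of the gene in every library.

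The long genes divided their reads differently from library to library. The leading isoform of Insr, ENSMUST00000091291, had 11.8, 0.0588 and 9.71 FPKM in the libraries labelled KO, against 7.16, 7.84 and 10.0 FPKM in those labelled WT. In KO 2, where it was nearly absent, an assembled isoform not listed above 0 elsewhere had 8.41 FPKM, and in WT 2 the short ENSMUST00000139504 had 6.79 FPKM. The leading isoform of Igf1r, ENSMUST00000005671, had 18.2, 15.2 and 14.8 FPKM in the libraries labelled KO, against 5.08, 15.8 and 16.5 FPKM in those labelled WT, and WT 1 had 4.88 FPKM in an assembled isoform. Irs1 was split between ENSMUST00000069799, with 10.0, 8.12 and 2.98 FPKM in the libraries labelled KO, against 14.1, 8.03 and 1.27 FPKM in those labelled WT, and an assembled isoform with 0.992, 3.24 and 2.34 FPKM against 0.00812, 11.2 and 5.39 FPKM. The leading isoform of Foxo3, ENSMUST00000105502, had 18.7, 15.3 and 17.3 FPKM in the libraries labelled KO, against 19.8, 9.34 and 19.1 FPKM in those labelled WT. For these 4 genes the leading isoform had a larger SD relative to its mean in each group than the gene sum did.

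**Figure D4:**
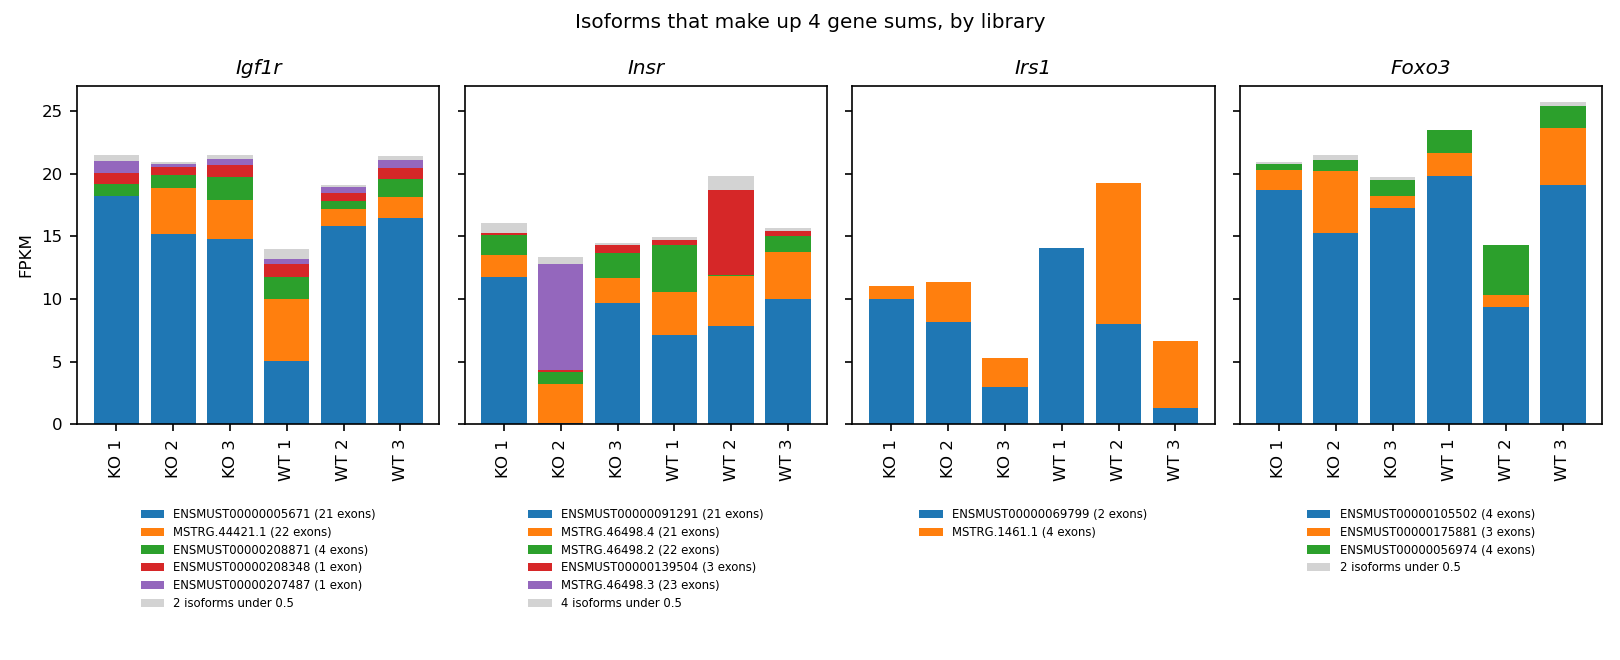
FPKM of the isoforms that add up to Igf1r, Insr, Irs1 and Foxo3, as stacked bars by library on a linear axis, with those labelled KO left of those labelled WT and isoforms with a mean under 0.5 FPKM joined in grey. The makeup of a bar changes between libraries of a group, as in Insr, where the leading isoform gives way in KO 2 to an assembled isoform with 8.41 FPKM.

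Around these 10 genes, 113 other genes of the pathway were listed in 7 groups, and 88 of them passed the filter. Of the 88, 6 were called higher, 8 lower and 74 did not pass, so 15.9% were called, against 6.9% of all genes tested. The lists were chosen with earlier results of these data known, so the larger share is a description only.

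Of the ligand genes, Igf1 had at most 0.0315 FPKM in any library and Igf2 had 0.122, 0.118 and 0.111 FPKM in the libraries labelled KO, against 0.461, 0.379 and 0.497 FPKM in those labelled WT; both stayed under the filter and were not tested. Igf2r, which encodes the receptor that clears IGF-2 and carries lysosomal enzymes, was the single tested gene of that group. It had 31.5, 30.0 and 28.9 FPKM in the libraries labelled KO, against 19.4, 24.0 and 20.0 FPKM in those labelled WT. The groups did not overlap, and its adjusted p of 0.0531 (log2 fold change 0.50, limma) missed the threshold, but passed under 6 of 20 other settings, with 0.0283 without WT 2.

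Among other IGF binding proteins and the proteases that cleave them, 4 of 11 genes were tested and 1 was called. Stc2, which encodes a secreted inhibitor of the protease that frees IGFs, had 7.21, 6.99 and 7.05 FPKM in the libraries labelled KO, against 1.26, 0.874 and 1.04 FPKM in those labelled WT (log2 fold change 1.98, adjusted p = 0.00254, limma). All 4 had positive log2 fold changes, with a median of 0.86, or 0.42 without WT 3. Igfbp4, named for its level after its values were seen, had 186, 164 and 168 FPKM in the libraries labelled KO, against 131, 134 and 24.9 FPKM in those labelled WT. Its groups did not overlap, and it did not pass (adjusted p = 0.337, limma) with WT 3 far below WT 1 and WT 2. Of the protease genes, Pappa and Pappa2 had at most 0.0529 and 0.0447 FPKM in any library and were not tested. The protease gene Htra1, with means of 25.1 FPKM in the libraries labelled KO and 23.5 FPKM in those labelled WT, overlapped between the groups.

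Of 11 tested genes for receptor adaptors, 2 were called lower and 0 higher, with a median log2 fold change of -0.07, or -0.13 without WT 2. Grb14, which encodes an adaptor that inhibits the insulin receptor kinase, had 6.07, 5.24 and 4.99 FPKM in the libraries labelled KO, against 11.6, 12.2 and 12.2 FPKM in those labelled WT (log2 fold change -1.02, adjusted p = 0.00818, limma). Gab1, which encodes a docking protein for PI3 kinase and SHP2, had 26.8, 26.0 and 29.8 FPKM in the libraries labelled KO, against 64.0, 51.6 and 48.2 FPKM in those labelled WT (log2 fold change -0.95, adjusted p = 0.0149, limma). The Grb14 call was lost with reference transcripts only (adjusted p = 0.134) and with the highest isoform only (0.194, limma). The Gab1 call was lost with the highest isoform only (adjusted p = 0.184), and without KO 1 (0.0655) or KO 2 (0.0661).

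Of 16 tested genes for PI3 kinase, AKT and their regulators, 1 was called. Trib3, which encodes a pseudokinase that binds AKT, had 18.6, 40.5 and 39.7 FPKM in the libraries labelled KO, against 5.93, 5.45 and 5.03 FPKM in those labelled WT (log2 fold change 2.31, adjusted p = 0.0139, limma). Its call was lost without KO 2 (adjusted p = 0.0543) or KO 3 (0.0565), and with the highest isoform only (0.0506, limma). In the mTOR branch 0 of 13 were called, and the most abundant, Akt1s1 and Rheb, an inhibitory subunit and the activating GTPase of mTOR complex 1, overlapped between groups. Akt1s1 had 21.0 to 26.9 FPKM in the libraries labelled KO and 20.6 to 40.9 FPKM in those labelled WT, and Rheb 22.7 to 28.2 and 18.2 to 28.0 FPKM. Among regulators of FOXO proteins 0 of 13 were called. Prmt1, which encodes an arginine methyltransferase that acts on FOXO1, had 42.0, 41.4 and 50.1 FPKM in the libraries labelled KO, against 34.9, 31.6 and 32.9 FPKM in those labelled WT, and did not pass (adjusted p = 0.0752, limma). Usp7, which encodes a deubiquitinase of FOXO4, had 27.3 to 30.1 FPKM in the libraries labelled KO and 29.6 to 33.4 FPKM in those labelled WT.

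The listed FOXO target genes held 10 of the 14 calls: of 30 tested, 4 were higher, 6 lower and 20 did not pass. All 3 KO values lay below the WT values in 14 of the 30 and above them in 7, and the median log2 fold change was -0.28. Over all genes tested, 16.4% lay below and 16.9% above, 6.9% were called, and the median was -0.02. The 6 that fell are all known as genes that FOXO factors activate. So are most genes of the list, so this was largely set by how the list was made. Fbxo32, the ubiquitin ligase subunit of muscle wasting, had 2.78, 2.75 and 3.08 FPKM in the libraries labelled KO, against 20.7, 23.3 and 20.1 FPKM in those labelled WT (log2 fold change -2.53, adjusted p = 0.000938, limma). Ulk1, the kinase that starts autophagy, had 8.40, 9.60 and 10.2 FPKM in the libraries labelled KO, against 16.5, 17.0 and 19.4 FPKM in those labelled WT (log2 fold change -0.84, adjusted p = 0.0151, limma).

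The other 4 that fell lie outside the rule for named genes. They were Rbl2, a pocket protein of cell cycle exit (14.2 ± 0.970 FPKM in the libraries labelled KO, 26.8 ± 5.04 FPKM in those labelled WT), Ccng2, a cyclin of cell cycle arrest (15.6 ± 2.38 and 26.6 ± 2.41 FPKM), Atg14, an autophagy subunit (4.43 ± 0.277 and 7.80 ± 0.217 FPKM), and the catalase gene Cat (30.1 ± 1.07 and 41.9 ± 1.58 FPKM), with SD over n = 3 each. Their adjusted p ran from 0.0206 to 0.0348 (limma). These calls depended on single libraries: each was lost on leaving out any 1 of the 3 KO libraries, and that of Ccng2 on leaving out any library, while those of Atg14 and Cat held without WT 2 and that of Rbl2 without WT 1. The Ulk1 call was lost without KO 1 (adjusted p = 0.0568) or KO 2 (0.0621), with reference transcripts only (0.205) and with the highest isoform only (0.921), and that of Fbxo32 held whichever library was left out. With only the isoform of highest mean taken for each gene, the log2 fold change of Rbl2 turned to 0.57 (adjusted p = 0.788, limma).

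The 4 that rose included genes that FOXO factors are known to repress and genes that they are known to activate. Ccnd1 and Ccnd2, the D-type cyclins that drive entry into the cell cycle, are among those repressed. Ccnd2 had 230.1, 225.8 and 230.1 FPKM in the libraries labelled KO, against 67.1, 64.0 and 70.1 FPKM in those labelled WT (log2 fold change 1.76, adjusted p = 0.000938, limma), and Ccnd1 had 156, 143 and 133 FPKM, against 73.2, 80.9 and 75.4 FPKM (log2 fold change 0.90, adjusted p = 0.00719, limma). Cdkn1a and Sesn2 are among those activated, and both also respond to other stress pathways. Other regulators of the genes that fell were not examined, and the cause was not tested in either direction. Cdkn1a, the cyclin-dependent kinase inhibitor p21, had 51.1, 49.6 and 50.2 FPKM in the libraries labelled KO, against 16.2, 20.1 and 19.6 FPKM in those labelled WT (log2 fold change 1.39, adjusted p = 0.00292, limma). Sesn2, a leucine sensor that restrains mTOR complex 1, had 35.0, 34.9 and 33.3 FPKM in the libraries labelled KO, against 5.05, 7.20 and 7.79 FPKM in those labelled WT (log2 fold change 2.22, adjusted p = 0.0026, limma). Its relative Sesn3, named after its values were seen, had 64.6, 22.4 and 66.1 FPKM in the libraries labelled KO, against 146, 139.6 and 138 FPKM in those labelled WT; it lay below in every library and did not pass (log2 fold change -1.60, adjusted p = 0.0819, limma).

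**Figure D5:**
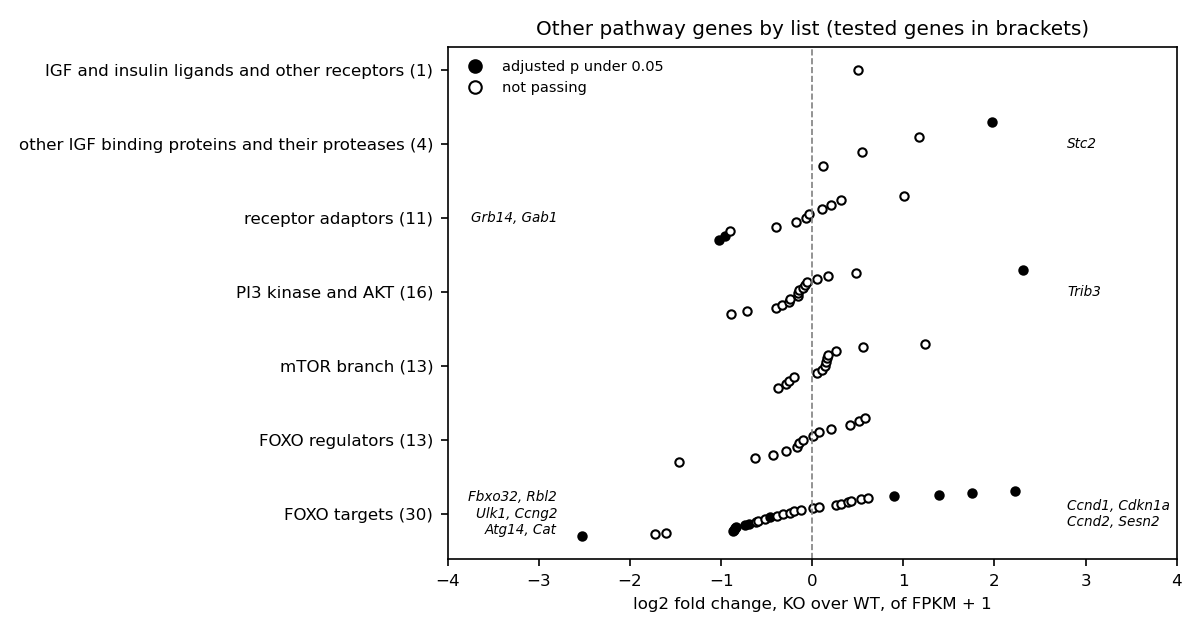
Log2 fold change (libraries labelled KO over those labelled WT, of FPKM + 1) of the 88 tested pathway genes by list, sorted within each list, with filled points for an adjusted p under 0.05 and open points for the rest. The names of called genes stand at the left where lower and at the right where higher; the FOXO targets hold 6 on the left and 4 on the right, and the mTOR branch and FOXO regulators hold none.

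Markers of other cell types moved with some of these results. The summed level of 7 oligodendrocyte lineage markers was 318 to 376 FPKM in the libraries labelled KO and 497 to 562 FPKM in those labelled WT, with 1 of 4 tested called higher and 2 lower. The sum was carried by Olig1, called lower at a mean of 326 FPKM in the libraries labelled KO and 504 FPKM in those labelled WT. Pdgfra was also called lower (3.03 and 7.47 FPKM), whereas Olig2 was called higher (16.0 and 3.36 FPKM). Sox10, Mbp and Mog stayed under 1 FPKM in every library. The 6 astrocyte markers summed to 560.0 to 589.5 FPKM in the libraries labelled KO and 564 to 583 FPKM in those labelled WT, with 1 called higher and 2 lower. This sum was carried by Slc1a3, at a mean of 397 FPKM in the libraries labelled KO and 409 FPKM in those labelled WT, and hides the called genes. Aldh1l1 was called higher (68.6 and 2.77 FPKM), whereas Gfap (27.0 and 77.8 FPKM) and Aqp4 (2.50 and 10.9 FPKM) were called lower. The part of these differences, and of those in the stem cell markers given above, in the results for Igfbp2, Igfbp3 and the FOXO targets was not tested. The sums for microglia (0.795 to 1.26 FPKM in the libraries labelled KO, 0.971 to 3.47 FPKM in those labelled WT) and endothelial cells (0.250 to 0.662 and 0.304 to 0.430 FPKM) were near 0. The 6 neuron markers summed to 88.9 to 136.6 FPKM in the libraries labelled KO and 66.2 to 178.1 FPKM in those labelled WT. These ranges overlapped, and 0 of the 2 neuron markers tested were called.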

How the data were processed

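Values came from 1 deposited isoform table of 6 libraries. The authors deposited FPKM per isoform and library, and coverage, a signal of mean reads per base. Tools used, per the submitters' processing notes, included cutadapt, Bowtie2, TopHat2 and StringTie. The build was not given in the sources used here, and all 28 annotated isoforms of the 10 genes had the coordinates of GENCODE M21 (GRCm38). Columns marked NT were taken as WT by elimination and by number. FPKM was summed per gene symbol over reference transcripts and assembled isoforms that overlap exons of the gene. Intronic, antisense and run-on fragments were left out. The ratio of coverage to FPKM, constant within a library, gave its depth and the reads behind a value.

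Genes with a mean of at least 1 FPKM were tested on log2(FPKM + 1), a scale that understates the change of low genes, with limma 3.58.1 in R 4.3.3 (mean-variance trend, Benjamini-Hochberg adjusted p under 0.05). Isoforms were tested alike. Tables were made with scipy 1.17.1, numpy 2.4.6 and pandas 2.3.3 under Python 3.11.15, and the procedure was tested on simulated data. The 10 genes, the gene lists and the marker lists were chosen with earlier results of these data known. Named were all 10 genes, up to 6 called genes of each list with the smallest p (the 2 most abundant where none was called), Vim, leading and called isoforms, and the 3 genes most like Igfbp3. Alternatives were pseudocounts of 0.1 and 5, no filter or 5 FPKM, 3 other scalings, no trend, robust variance, a replicate block, 3 other gene definitions, estimated reads with voom, and leaving out each library.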

Additional observations from a re-analysis of the deposited data

Results flagged for a closer look

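Both fragments within the intron of Irs2 lie outside the gene values used in the comparisons, and both had a signal above the libraries labelled WT. The longer (1449 bases) averaged 5.76 ± 1.38 FPKM in the libraries labelled KO and 2.70 ± 0.816 FPKM in those labelled WT. The shorter (1163 bases) averaged 3.82 ± 0.288 FPKM in the libraries labelled KO and 2.20 ± 0.142 FPKM in those labelled WT (SD, n = 3 each). The 2 fragments together rest on 305, 388 and 488 reads in the libraries labelled KO, against 217, 160 and 245 reads in those labelled WT. Of the 10 fragments left out of the gene values, these 2 were flagged because every KO value lay above every WT value. The separation is thus the rule of choice and not a further result, and it was seen in 10.1% of all isoforms tested. Neither fragment passed the adjusted test over all isoforms (adjusted p = 0.426 and 0.457, limma).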

How the results depend on the processing

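In the replicate block fit, 15 genes (833 without the block), 0 of the 10 genes (2), 2 pathway genes (14) and 0 isoforms of the 10 genes (2) were called. Whether the replicate numbers pair the samples was not settled. Deviations of same-numbered libraries correlated at 0.0119, -0.00306 and 0.065, and not every library correlated best with its own number. Pairs of different numbers ran from -0.0447 to 0.0332. With 3 libraries in each group, such values cannot decide whether same-numbered libraries shared a preparation. Genes called in all were 235 with reference transcripts only, 542 with every class of fragment summed, 128 with the highest isoform only, and 286 to 782 with 1 library left out. Pathway genes called were 8 with reference transcripts only, 7 with the highest isoform only and 8 to 13 with 1 library left out. Of the 10 genes, 1 was called without a filter, 3 with a filter of 5 FPKM, and 2 to 2 with 1 library left out. Of their isoforms, 1 was called with a pseudocount of 0.1 and 0 to 0 with 1 library left out.

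Log2 fold changes turned sign under some settings, none of them for Igfbp2 or Igfbp3. With every class of fragment, Foxo1 gave 0.19 and Foxo3 -0.036, where the median of all genes was -0.10. Insr gave 0.034 with estimated reads, and Irs1 gave 0.12 with reference transcripts only and 0.12 with the highest isoform only. With the highest isoform only, Rbl2 gave 0.57, Prmt1 -5.23e-05, Rheb -0.055 and Ulk1 -0.19, the last without a change of sign. With 1 library left out, Foxo1 ran from -0.25 to 0.21, Foxo3 from -0.24 to 0.16 and Igfbp5 from -0.19 to 0.13. Leading isoforms then ran from -0.25 to 0.21 for Foxo1, -0.18 to 0.32 for Foxo3, -0.013 to 0.75 for Igf1r, -1.46 to 0.34 for Insr, -0.66 to 0.70 for Irs1 and -0.20 to 0.12 for Igfbp5. Igfbp3 stayed called in 19 of 20 alternatives (adjusted p = 0.0576 with the block) and Igfbp2 in 18 of 20 (0.0957 with the block, limma). The causes were not tested. With 3 libraries in each group, the intervals given are wide for Irs1, Irs2 and Foxo1.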
